A study of Arabidopsis thaliana with 12 samples.

Results

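The 10 genes described here belong to the phosphate starvation response of Arabidopsis thaliana and were followed over 4 genotypes. They are the phosphatase genes PAP17, PECP1 and PS2, the sulfolipid and galactolipid synthesis genes SQD1, SQD2, MGD2 and MGD3, and the phospholipid breakdown genes PLDZ2, NPC4 and GDPD1. They were chosen by name, as 10 of the 28775 loci counted, with earlier fold changes and tests from these same libraries known. The tests below therefore describe these libraries, and the number of members that passed is not independent evidence about the group. All 10 passed the filter on low counts, as did 17938 loci in all.

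The study grew plants of the Ws strain on MS medium and harvested them whole at 14 days. RNA sequencing was done on 3 libraries of each of 4 genotypes: wild type (WT), 35S:GRF1-GFP, 35S:GRF3-GFP and the mutant grf1/grf2/grf3. GRF1, GRF2 and GRF3 encode growth-regulating factors, plant transcription factors that act in leaf and root growth. In the 35S:GRF1-GFP and 35S:GRF3-GFP lines a viral promoter active in most plant tissues, 35S, drives a GRF fused to green fluorescent protein. The excess factor is thus not limited to the cells that normally make it. The labels name no treatment with low phosphate, and they do not say how many transgenic lines were used or how many plants entered a library. They describe a planting in randomized blocks with 3 replications, without saying which library came from which block. Where libraries of a genotype do not come from separate plantings, the p-values measure a spread that may be technical.

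The targeted genes were checked first, as CPM, the share of a gene in its library's gene counts after scaling between libraries (mean ± SD, n = 3 throughout). GRF1 stood at 150 ± 35.0 CPM in 35S:GRF1-GFP plants (hereafter GRF1 overexpressors) against 17.1 ± 1.57 CPM in WT. GRF3 stood at 210 ± 13.7 CPM in 35S:GRF3-GFP plants (GRF3 overexpressors) against 22.5 ± 6.78 CPM in WT. GRF1 in the libraries labelled grf1/grf2/grf3 (hereafter grf123) was at 8.58 ± 1.25 CPM and GRF2 at 0.929 ± 0.253 CPM, against 11.1 ± 2.35 CPM for GRF2 in WT. GRF3, however, was at 22.7 ± 2.62 CPM in the libraries labelled grf123, which is not below WT, so the counts do not show the loss of that gene. GRF2 was also low in the GRF1 overexpressors, at 0.742 ± 0.493 CPM, and in the GRF3 overexpressors, at 0.869 ± 0.275 CPM. A low GRF2 level is thus shared by all 3 genotypes set against WT. GRF1 was low in the GRF3 overexpressors too, at 8.85 ± 0.153 CPM (log2 -0.92 ± 0.18 SE against WT, edgeR adjusted p = 0.0026). That is close to its level in the libraries labelled grf123 (log2 -0.91 ± 0.18 SE, edgeR adjusted p = 0.00396). The labels do not say whether the overexpressors carry mutant GRF alleles, and this was not tested. Where an overexpressor differs from WT, the added GRF and the low GRF2 cannot be told apart. In the GRF3 overexpressors the same holds for the low GRF1. Gene counts ran from 2820223 in WT replicate 3 to 14277574 in grf123 replicate 3. WT replicate 3 stood apart from the other libraries on the first and second principal components, so calls that change without it are named with each comparison.

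Plants short of inorganic phosphate free it from organic phosphate with phosphatases and replace membrane phospholipids by lipids that carry no phosphorus. Phospholipases and phosphodiesterases take phospholipids apart, while SQD1 and SQD2 make a sulfolipid and the MGD enzymes make a galactolipid in their place. In Arabidopsis the transcription factor PHR1 switches on many of these genes by binding a short element called P1BS. PHR1 is held back by SPX proteins when phosphate is ample.

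The P1BS letters, GNATATNC, read the same on both strands. They were searched in the 300 bases from 250 before to 50 after each annotated transcript start in the TAIR10.1 assembly. The letters occurred in 6 of the 10 members, with 8 matches, and in 6.25% of the windows of 27443 genes. The members were chosen as phosphate starvation genes, many of which PHR1 switches on through P1BS. A count of matches is therefore not independent of that choice, and the matching stretches are shown as a description. Each is on the strand of its gene, 5′ to 3′, with the P1BS letters in capitals.
PS2: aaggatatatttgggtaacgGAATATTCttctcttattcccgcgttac
SQD1: ggaataagtaaGAATATGCtttgggcatat
MGD2: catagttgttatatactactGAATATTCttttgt
MGD2: tcgaggaccttGAATATTCgaatc
PLDZ2: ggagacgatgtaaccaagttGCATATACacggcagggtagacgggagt
NPC4: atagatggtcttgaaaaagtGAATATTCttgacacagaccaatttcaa
GDPD1: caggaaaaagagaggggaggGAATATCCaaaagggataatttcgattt
GDPD1: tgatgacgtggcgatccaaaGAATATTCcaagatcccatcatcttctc

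The PS2 stretch lies at chr1:27466538-27466585 on the minus strand, with the first P1BS base at -217 from the transcript start. In SQD1 the match, at chr4:15935376-15935405 on the plus strand, starts at +15 and so lies inside the annotated transcript. MGD2 has a match at -14, in chr5:6896429-6896462, and another at +38 inside the transcript, in chr5:6896489-6896512, both on the plus strand. The PLDZ2 stretch is chr3:1634994-1635041 on the plus strand, with the match at -180. That of NPC4 is chr3:845288-845335 on the minus strand, with the match at -219. GDPD1 has 2 matches on the minus strand, at -127 in chr3:350110-350157 and at -63 in chr3:350046-350093. Of the 8 matches, 5 read GAATATTC, a full palindrome.

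In the 1000 bases before the start, P1BS letters were found in 7 of the 10 members, against 20.3% of 27443 genes. PLDZ2 and GDPD1 had 4 matches each, NPC4 had 3, PECP1, PS2 and MGD2 had 2 each, and SQD2 had 1. PAP17, SQD1 and MGD3 had none in that window, which says only that these letters were not there. TGTCAG, a core sequence bound by GRF proteins, was searched on both strands of the 300-base windows. It occurred in 1 of the 10 members, SQD2, at -104, and in 6.57% of all windows. These matches are letters in a window and do not show binding in these plants.

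The 3 phosphatase genes were highest in the GRF3 overexpressors and lowest in the libraries labelled grf123. PAP17 (AT3G17790, chr3:6089381-6091231) encodes a purple acid phosphatase, an enzyme that frees phosphate from organic esters. It stood at 55.2, 58.1 and 53.6 CPM in the 3 WT libraries and at 69.5, 74.2 and 90.1 CPM in the GRF3 overexpressors. The libraries labelled grf123 had 30.2, 27.1 and 29.6 CPM. These 3 genotypes did not overlap. PAP17 was 1.40-fold higher in the GRF3 overexpressors than in WT (log2 0.48 ± 0.12 SE, edgeR adjusted p = 0.00969). It was 1.91-fold lower than in WT in the libraries labelled grf123 (log2 -0.94 ± 0.13, edgeR adjusted p = 4.2e-05). The GRF1 overexpressors had 39.5, 40.4 and 53.3 CPM, of which 1 lay just below the lowest WT library and the other 2 well below it. The difference was 1.26-fold (log2 -0.34 ± 0.12, edgeR adjusted p = 0.0488).

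PECP1 (AT1G17710, chr1:6090405-6092027) encodes a phosphatase that frees phosphate from phosphocholine and phosphoethanolamine, the head groups of the common phospholipids. Its levels were 5.21, 3.78 and 4.83 CPM in WT, 10.7, 7.02 and 10.7 CPM in the GRF3 overexpressors and 1.62, 0.915 and 0.618 CPM in the libraries labelled grf123. The 3 groups did not overlap, but the grf123 values rest on 10, 3 and 9 counts. PECP1 was 2.07-fold higher in the GRF3 overexpressors (log2 1.05 ± 0.29, edgeR adjusted p = 0.0202). It was 4.78-fold lower in the libraries labelled grf123 (log2 -2.26 ± 0.41, edgeR adjusted p = 0.00141). The GRF1 overexpressors stood at 4.64, 3.50 and 7.65 CPM, across the WT range (log2 0.16, 95% interval -0.48 to 0.80).

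PS2 (AT1G73010, chr1:27464528-27466348) encodes a close relative of PECP1 in the same phosphatase family. WT libraries had 10, 10.5 and 13.6 CPM, the libraries labelled grf123 had 2.44, 3.66 and 3.09 CPM, and the GRF3 overexpressors had 24.3, 13.2 and 36.9 CPM. The second GRF3 overexpressor library fell inside the WT range, and the other 2 lay above it. The fitted difference was 2.30-fold (log2 1.2 ± 0.34, edgeR adjusted p = 0.0438). All 3 grf123 libraries lay below WT, 3.62-fold lower (log2 -1.86 ± 0.45, edgeR adjusted p = 0.043). GRF1 overexpressors had 14.9, 9.77 and 14.2 CPM, which overlapped WT (log2 0.22, 95% interval -0.58 to 1.03).

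**Figure D1:**
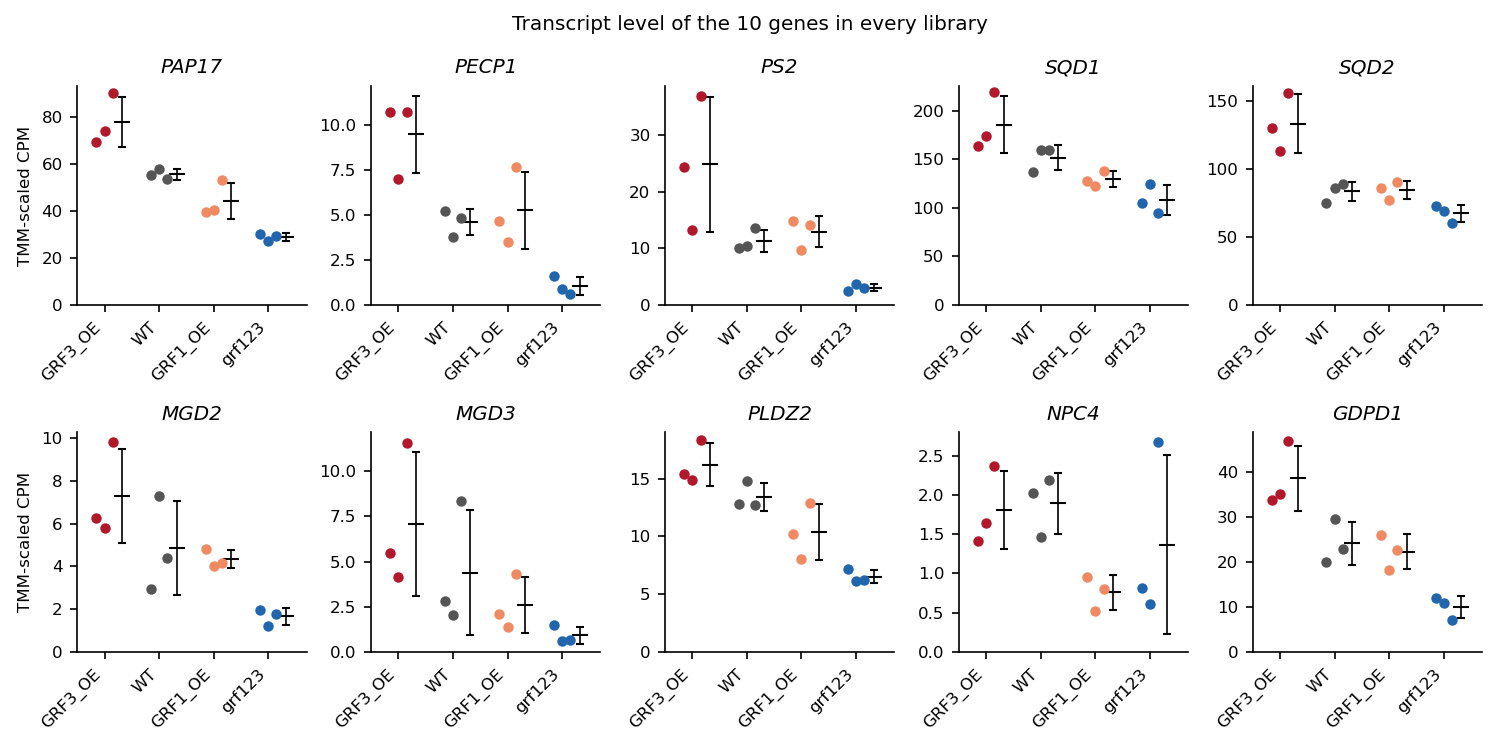
Levels of the 10 genes in CPM (vertical axis, linear scale, 1 panel for each gene) in the 4 genotypes. Points are single libraries and bars are means with SD (n = 3). In PAP17 the GRF3 overexpressors lie between 69.5 and 90.1 CPM and the libraries labelled grf123 between 27.1 and 30.2 CPM, with WT between 53.6 and 58.1 CPM.

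The lipid synthesis genes kept the same order of genotype means at the 2 ends, with smaller differences in the sulfolipid pair. SQD1 (AT4G33030, chr4:15935373-15937833) encodes the enzyme that makes UDP-sulfoquinovose, the sulfur-bearing sugar donor of the sulfolipid. It stood at 137, 159 and 159 CPM in WT and at 105, 125 and 94.3 CPM in the libraries labelled grf123, all below WT. That difference was 1.41-fold (log2 -0.50 ± 0.12, edgeR adjusted p = 0.0129). SQD1 in the GRF3 overexpressors had 164, 174 and 219 CPM, all above WT, but the difference missed the threshold (log2 0.30 ± 0.11, edgeR adjusted p = 0.0828). The GRF1 overexpressors had 128, 122 and 138 CPM, overlapping WT (log2 -0.23, 95% interval -0.46 to 0.01).

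SQD2 (AT5G01220, chr5:86543-90117) encodes the transferase that completes the sulfolipid. It stood at 75.2, 85.9 and 89.1 CPM in WT and at 130, 113 and 156 CPM in the GRF3 overexpressors. The lowest GRF3 overexpressor library was above the highest WT library, and the difference was 1.61-fold (log2 0.69 ± 0.11, edgeR adjusted p = 6.85e-04). The GRF1 overexpressors, at 86.0, 76.9 and 90.3 CPM, overlapped the WT range (log2 0.02, 95% interval -0.21 to 0.26). The libraries labelled grf123 had 72.4, 68.9 and 60.6 CPM, below each WT library, without passing the test (log2 -0.31 ± 0.12, edgeR adjusted p = 0.145).

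MGD2 (AT5G20410, chr5:6896463-6898783) and MGD3 (AT2G11810, chr2:4743162-4746813) encode the monogalactosyldiacylglycerol synthases that act outside the inner chloroplast membrane and are known for their rise under phosphate shortage. MGD2 had 2.92, 7.28 and 4.39 CPM in WT, so its WT libraries were themselves spread. The libraries labelled grf123 had 1.95, 1.22 and 1.78 CPM, below each WT library, 2.81-fold lower (log2 -1.49 ± 0.36, edgeR adjusted p = 0.0145). The GRF3 overexpressors had 6.28, 5.78 and 9.84 CPM and overlapped WT (log2 0.59 ± 0.29, edgeR adjusted p = 0.187). MGD2 in the GRF1 overexpressors had 4.80, 4.01 and 4.15 CPM, inside the WT range (log2 -0.19, 95% interval -0.83 to 0.45).

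MGD3 was low and varied widely among replicates. WT replicate 3 had 8.34 CPM, from 19 counts, against 2.79 and 2.04 CPM in the other WT libraries. The GRF3 overexpressors had 5.49, 4.13 and 11.6 CPM, the GRF1 overexpressors 2.08, 1.34 and 4.31 CPM, and the libraries labelled grf123 1.46, 0.610 and 0.618 CPM. All grf123 values lay below WT, from 9, 2 and 9 counts. Against WT, MGD3 did not pass in the libraries labelled grf123 (log2 -2.01 ± 0.77, edgeR adjusted p = 0.185). It did not pass in the GRF3 overexpressors either (log2 1.04 ± 0.56, edgeR adjusted p = 0.259), nor in the GRF1 overexpressors (log2 -0.51, 95% interval -1.93 to 0.91).

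Of the phospholipid breakdown genes, PLDZ2 and GDPD1 were low in the libraries labelled grf123. PLDZ2 (AT3G05630, chr3:1635194-1640357) encodes a phospholipase D, which cuts the head group from phospholipids. It stood at 12.8, 14.8 and 12.7 CPM in WT and at 7.15, 6.10 and 6.25 CPM in the libraries labelled grf123, with no overlap. The difference was 2.09-fold (log2 -1.06 ± 0.19, edgeR adjusted p = 0.00129). The GRF3 overexpressors had 15.4, 14.9 and 18.4 CPM, slightly above WT in every library, and the difference did not pass (log2 0.26 ± 0.17, edgeR adjusted p = 0.33). The GRF1 overexpressors had 10.2, 8.02 and 12.9 CPM, of which 1 library reached the WT range (log2 -0.41 ± 0.18, edgeR adjusted p = 0.102).

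GDPD1 (AT3G02040, chr3:348167-350010) encodes a glycerophosphodiester phosphodiesterase, which cuts the deacylated remains of phospholipids to glycerol 3-phosphate. Its levels were 19.9, 29.4 and 22.8 CPM in WT, 33.7, 35.0 and 46.7 CPM in the GRF3 overexpressors and 11.9, 10.7 and 7.07 CPM in the libraries labelled grf123. These 3 groups did not overlap. GDPD1 was 1.60-fold higher in the GRF3 overexpressors (log2 0.68 ± 0.19, edgeR adjusted p = 0.0307). It was 2.60-fold lower in the libraries labelled grf123 (log2 -1.38 ± 0.23, edgeR adjusted p = 0.00158). The GRF1 overexpressors, at 25.9, 18.1 and 22.6 CPM, overlapped WT (log2 -0.14, 95% interval -0.56 to 0.29).

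NPC4 (AT3G03530, chr3:842499-845096) encodes a non-specific phospholipase C, which leaves the diacylglycerol used for galactolipid synthesis. It was the lowest member in WT and did not follow the others. WT had 2.03, 1.46 and 2.20 CPM, the GRF3 overexpressors 1.41, 1.65 and 2.37 CPM and the GRF1 overexpressors 0.959, 0.514 and 0.797 CPM. The GRF1 overexpressors lay below each WT library, on 6, 5 and 5 counts, without passing the test (log2 -1.31 ± 0.54, edgeR adjusted p = 0.0828). The libraries labelled grf123 disagreed among themselves, with 0.812 and 0.610 CPM in replicates 1 and 2, from 5 and 2 counts, and 2.68 CPM in replicate 3, from 39 counts. No direction can be read for NPC4 there (log2 -0.09, 95% interval -1.05 to 0.88), nor in the GRF3 overexpressors (log2 0.01, 95% interval -0.92 to 0.95). Its neighbour and close relative NPC5 (AT3G03540) had 1 count over all libraries.

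PAP17, GDPD1 and PLDZ2 share bases with a gene on the other strand, and the sources used here do not say whether reads were counted by strand. The overlap of PAP17 with AT3G17800 is 122 bases, that of GDPD1 with AT3G02030 is 681 bases and that of PLDZ2 with AT3G05640 is 8 bases. Reads there cannot be told apart, so the levels of these members are uncertain to that extent. The neighbours in the libraries labelled grf123 were at log2 0.01 (AT3G17800), 0.42 (AT3G02030) and 0.17 (AT3G05640) against WT, none past the test, while the members were at -0.94, -1.38 and -1.06. AT3G17800 was lower in the GRF1 overexpressors than in WT by a similar amount as PAP17 (log2 -0.36 ± 0.10, edgeR adjusted p = 0.0102). AT3G05640 was also lower there (log2 -0.80 ± 0.16, edgeR adjusted p = 0.00184), while PLDZ2 stood at log2 -0.41.

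Counted over the 10 genes, 5 were higher and 0 lower in the GRF3 overexpressors than in WT, namely PAP17, PECP1, PS2, SQD2 and GDPD1. Over all 17938 genes tested, 6.07% were higher and 6.34% lower. The median log2 difference was 0.63 over the members and 0.00 over all genes. Since the choice of genes used this contrast, nothing is read from the count. GRF3 overexpressor replicate 3 was the highest of its group in 9 of the 10 members. Without it only SQD2 passed, and PS2 stood at log2 0.77. Without GRF3 overexpressor replicate 1, WT replicate 1 or WT replicate 3, 3 members passed in each case, and PS2 and GDPD1 were the calls lost without WT replicate 3 (edgeR adjusted p = 0.0805 and 0.0844). The count was 2 when a trend of the differences with transcript length was removed. Only SQD2 passed under every alternative tried. With the replicate number as a block GDPD1 did not pass (edgeR adjusted p = 0.0645). The PS2 call was lost when any 1 library was left out except GRF1 overexpressor replicate 2 or GRF3 overexpressor replicate 2. By an unadjusted p under 0.05, and by DESeq2, 0 members were lower as well.

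In the libraries labelled grf123, 7 members were lower than in WT and 0 were higher: PAP17, PECP1, PS2, SQD1, MGD2, PLDZ2 and GDPD1. Over all genes, 2.77% were lower and 2.11% higher. The median log2 difference was -1.22 over the members and 0.01 over all genes, again in a contrast known when the genes were chosen. PAP17, PLDZ2 and GDPD1 passed under every alternative. The count was 3 without grf123 replicate 3, the deepest library, and 4 without WT replicate 2, when MGD2 stood at log2 -0.94. PS2 passed without GRF1 overexpressor replicate 2 or GRF3 overexpressor replicate 2 or 3 but not without any other single library. With the replicate block MGD3 passed as well (log2 -2.40, edgeR adjusted p = 0.00275), and so it did in DESeq2 (log2 -2.16, DESeq2 adjusted p = 0.012).

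The GRF1 overexpressors gave 1 member lower than WT, PAP17, and 0 higher, with 11.8% of all genes lower and 10% higher. This genotype had the most genes called against WT, and the members' median log2 difference was -0.21. The PAP17 call lay close to the threshold. It was lost without GRF1 overexpressor replicate 1 or 2, GRF3 overexpressor replicate 1 or 2, grf123 replicate 2 or any WT library. PLDZ2 joined it without GRF1 overexpressor replicate 3 (edgeR adjusted p = 0.0353), as did NPC4 without grf123 replicate 3 (edgeR adjusted p = 0.049) and with the replicate block (edgeR adjusted p = 0.0492).

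**Figure D2:**
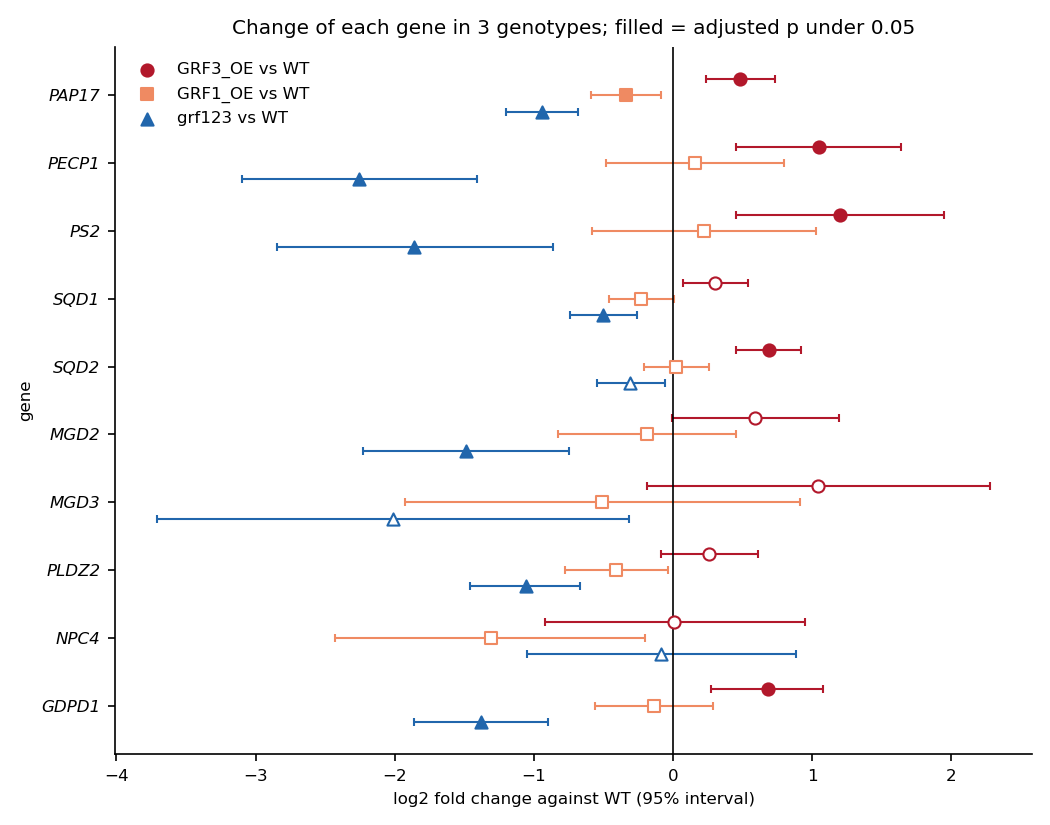
Log2 difference of each of the 10 genes (vertical axis) from WT in the 3 other genotypes (horizontal axis; points are edgeR estimates, bars are 95% intervals, filled points passed the test at an adjusted p under 0.05). The 5 filled points of the GRF3 overexpressors lie between 0.48 and 1.2, the 7 of the libraries labelled grf123 between -2.26 and -0.50, and the GRF1 overexpressors have 1, PAP17 at -0.34.

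The overexpressors were also compared with each other. PAP17, SQD1, SQD2, PLDZ2 and GDPD1, 5 of the 10, were lower in the GRF1 than in the GRF3 overexpressors, and 0 were higher, with 0.652% of all genes lower and 0.485% higher. PAP17 was 1.77-fold lower (log2 -0.82 ± 0.12, edgeR adjusted p = 1.92e-04) and SQD2 1.58-fold lower (log2 -0.66 ± 0.11, edgeR adjusted p = 0.00154). SQD1 was lower by 1.44-fold (edgeR adjusted p = 0.0155), PLDZ2 by 1.59-fold (edgeR adjusted p = 0.047) and GDPD1 by 1.76-fold (edgeR adjusted p = 0.0435). PECP1, PS2, MGD2, MGD3 and NPC4 had log2 differences from -1.55 to -0.78 and did not pass. PAP17 and SQD2 passed under every alternative. The count was 2 without GRF1 overexpressor replicate 1 or 2 or without GRF3 overexpressor replicate 3, and 3 without GRF3 overexpressor replicate 1 or grf123 replicate 2. It was also 3 with the length trend removed. GDPD1 passed without grf123 replicate 1 or 3 or WT replicate 1 or 2 but not without any other single library, including WT replicate 3 (edgeR adjusted p = 0.06). PLDZ2 did not pass without GRF1 overexpressor replicate 1 or 2, any GRF3 overexpressor library, grf123 replicate 2 or WT replicate 2, nor with RLE or upper-quartile factors, in DESeq2 or with the length or GC trend removed (adjusted p from 0.051 to 0.331). With the replicate block PLDZ2 (edgeR adjusted p = 0.052) and GDPD1 (edgeR adjusted p = 0.0964) did not pass, while PS2 (edgeR adjusted p = 0.0258) and MGD3 (edgeR adjusted p = 0.0214) did.

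Between the GRF3 overexpressors and the libraries labelled grf123, all members but NPC4 differed. The 9 genes were higher in the GRF3 overexpressors and 0 were lower, with 7.53% of all genes higher and 7.38% lower. The differences ran from 1.74-fold in SQD1 (edgeR adjusted p = 6.13e-05) to 9.89-fold in PECP1 (log2 3.31 ± 0.36, edgeR adjusted p = 1.87e-06). PS2 was 8.31-fold and MGD3 8.32-fold higher, MGD2 4.22-fold, GDPD1 4.16-fold, PAP17 2.68-fold, PLDZ2 2.50-fold and SQD2 1.99-fold. The fold was smallest in the 2 sulfolipid genes, which had the highest levels per kilobase in WT. Of these calls, 8 were kept under every alternative, and that of MGD3 was lost without grf123 replicate 3 (edgeR adjusted p = 0.0796).

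The GRF1 overexpressors had 7 members higher than the libraries labelled grf123 and 0 lower, with 7.94% of all genes higher and 9.67% lower. PECP1 was 5.35-fold higher (log2 2.42 ± 0.39, edgeR adjusted p = 1.38e-04) and PS2 4.23-fold higher (log2 2.08 ± 0.42, edgeR adjusted p = 0.00712). MGD2 was 2.46-fold, GDPD1 2.37-fold, PLDZ2 1.57-fold, PAP17 1.52-fold and SQD2 1.26-fold higher. SQD1 and MGD3 were at log2 0.27 and 1.50, and NPC4 at -1.23, none past the test. The calls of SQD2 and PLDZ2 were lost without GRF1 overexpressor replicate 1 or 3 or grf123 replicate 2 or 3, and that of SQD2 also without GRF3 overexpressor replicate 1 or WT replicate 2. With the replicate block SQD2 did not pass (edgeR adjusted p = 0.0512) and MGD3 did (edgeR adjusted p = 0.0108). NPC4 was the only member lower at an unadjusted p under 0.05, and DESeq2 called 0 lower.

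Set in order of their means, the genotypes ran from the GRF3 overexpressors at the top to the libraries labelled grf123 at the bottom in all members but NPC4. WT and the GRF1 overexpressors, between them, could be told apart by the test in PAP17 alone. The GRF3 overexpressors passed the test against the next genotype down in PAP17, SQD2 and GDPD1 and did not in PECP1, PS2, SQD1, MGD2, MGD3 and PLDZ2. The libraries labelled grf123 passed against the next genotype up in PAP17, PECP1, PS2, MGD2, PLDZ2 and GDPD1 and did not in SQD1, SQD2 and MGD3. WT was above the GRF1 overexpressors in PAP17, SQD1, MGD2, MGD3, PLDZ2 and GDPD1, and below them in PECP1, PS2 and SQD2. NPC4 ran from WT through the GRF3 overexpressors and the libraries labelled grf123 to the GRF1 overexpressors, and no neighbours in that order differed by the test.

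Levels of different genes were compared per kilobase of exon. In WT the sulfolipid genes were highest, at 79.3 CPM per kilobase for SQD1 and 37.5 for SQD2, followed by PAP17 at 33.6 and GDPD1 at 15.8. PS2 stood at 8.70, PLDZ2 at 3.83, PECP1 at 3.69, MGD2 at 2.54, MGD3 at 2.35 and NPC4 at 0.981 CPM per kilobase. The phosphate-scavenging PAP17 and the sulfolipid pair were thus far above MGD2 and MGD3 in WT plants on this scale. The galactolipid synthase genes MGD1 and DGD1, which are not members, stood at 30.8 and 31.8 CPM per kilobase in WT, close to PAP17.

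The members other than NPC4 also tracked each other from library to library. Over the 12 libraries their 36 pairs had Pearson r from 0.78 to 0.97 on the log2 CPM scale, with a median of 0.89. The 9 pairs with NPC4 had r from 0.18 to 0.46. These values are descriptions, since the libraries fall into 4 genotypes and each library's genes share its depth and scaling. After each genotype's mean was taken out, the 36 pairs had r from 0.00 to 0.82, with a median of 0.51. Of these, 35 were above 0. Pairs of other genes were not measured in this way, so the values cannot be called a trait of the members. GRF3 overexpressor replicate 3 was the high library of its group in 9 members, and GRF1 overexpressor replicate 2 the low library of its group in 9.

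**Figure D3:**
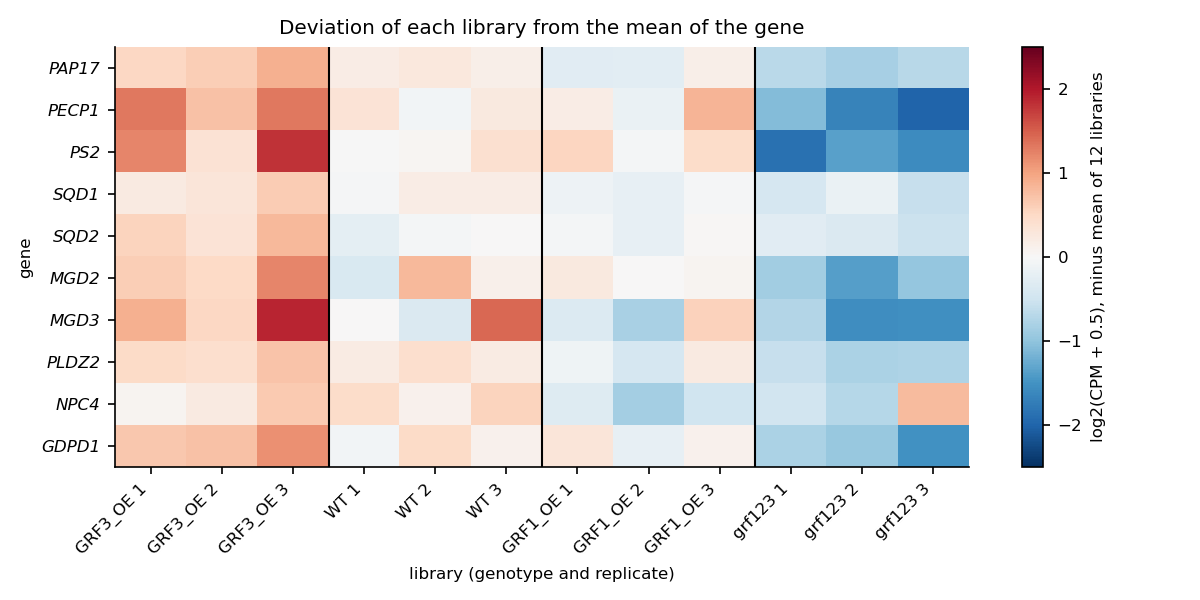
Heat map of log2(CPM + 0.5) of the 10 genes (rows) in the 12 libraries (columns, by genotype), each row with its mean over the libraries taken out. PAP17 runs from 0.89 in GRF3 overexpressor replicate 3 to -0.83 in grf123 replicate 2, and the row of NPC4 does not follow the others.

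Among all other genes with a symbol, those whose pattern was most like the members' mean were PHO1;H1 (r = 0.952 over 12 libraries), SPX1 (r = 0.946), CYP71B24 (r = 0.937), IPS1 (r = 0.928) and FLA13 (r = 0.918). PHO1;H1 encodes a relative of the phosphate exporter PHO1, SPX1 an inhibitor of PHR1 and IPS1 a non-coding RNA that rises under phosphate shortage. CYP71B24 is a cytochrome P450 gene and FLA13 encodes an arabinogalactan protein. SPX1 stood at 80.6 ± 9.19 CPM in the GRF3 overexpressors, 50.6 ± 9.11 CPM in the GRF1 overexpressors, 50.4 ± 8.25 CPM in WT and 26.4 ± 3.80 CPM in the libraries labelled grf123. The mean of the members themselves was most like PAP17 when each gene was compared with the other 9 (r = 0.97) and least like NPC4 (r = 0.34).

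Other genes of the same enzyme families were followed as well. For this and the later lists, the share of all genes called against WT is the background. It was 6.07% higher and 6.34% lower in the GRF3 overexpressors. In the libraries labelled grf123 it was 2.11% and 2.77%, and in the GRF1 overexpressors 10% and 11.8%. Counts near these shares say nothing about a list. Of 27 further purple acid phosphatase genes, 19 passed the filter. Of the 19, 2 were higher in the GRF3 overexpressors than in WT and 0 lower: PAP12 (log2 0.50 ± 0.11, edgeR adjusted p = 0.00666) and PAP14 (log2 1.18 ± 0.39, edgeR adjusted p = 0.0487). PAP14 was at 3.45 against 1.56 CPM, and the count was 1 when any 1 library was left out except GRF3 overexpressor replicate 2 or grf123 replicate 3. PAP4 was lower in the libraries labelled grf123 (log2 -0.52 ± 0.14, edgeR adjusted p = 0.0268) and 0 were higher, with PAP3 higher at an unadjusted p under 0.05 and 0 higher in DESeq2. The count of lower genes was 0 without grf123 replicate 1, WT replicate 2 or WT replicate 3 and 2 without GRF1 overexpressor replicate 1 or 3. In the GRF1 overexpressors PAP10 (log2 -0.57 ± 0.15), PAP18 (log2 -0.50 ± 0.13) and PAP22 (log2 -1.04 ± 0.38) were lower, with edgeR adjusted p from 0.00775 to 0.0497, and 0 were higher. That count was 1 without GRF1 overexpressor replicate 1. The family's median log2 difference from WT was 0.04 in the GRF3 overexpressors, -0.13 in the libraries labelled grf123 and -0.21 in the GRF1 overexpressors.

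Of 17 further lipid remodelling genes, 15 passed the filter. DGD1, the synthase of most digalactolipid in chloroplasts, stood at 96.3 CPM in WT, 73.5 CPM in the GRF3 overexpressors and 53.2 CPM in the GRF1 overexpressors. It was lower in the GRF1 overexpressors (log2 -0.85 ± 0.10, edgeR adjusted p = 4.34e-06) and in the GRF3 overexpressors (log2 -0.39 ± 0.10, edgeR adjusted p = 0.0156), where it was the only gene of the list called. That call was lost without GRF3 overexpressor replicate 1 or WT replicate 2, and the count was 2 without WT replicate 1. NPC6, a phospholipase C gene, and PAH1, a phosphatidic acid phosphatase gene, were also lower in the GRF1 overexpressors (log2 -0.56 ± 0.12 and -0.35 ± 0.12, edgeR adjusted p = 0.00185 and 0.0362). GDPD2, a relative of GDPD1, was the only gene lower in the libraries labelled grf123 (log2 -1.56 ± 0.44, edgeR adjusted p = 0.0464), a call kept only without GRF3 overexpressor replicate 2 or 3 or WT replicate 1. In each of the 3 comparisons with WT, edgeR called 0 of the 15 higher. At an unadjusted p under 0.05, MGD1 was higher in the GRF1 overexpressors and NPC1 and GDPD6 in the libraries labelled grf123, where DESeq2 called 1 higher. Leaving out grf123 replicate 1 brought 1 higher call in the GRF1 overexpressors and 1 in the libraries labelled grf123.

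All 9 genes of the regulator list passed the filter. In the GRF3 overexpressors SPX1 (log2 0.67 ± 0.14, edgeR adjusted p = 0.00514), SPX3, another SPX gene (log2 1.57 ± 0.51, edgeR adjusted p = 0.0427), and IPS1 (log2 1.65 ± 0.27, edgeR adjusted p = 6.75e-04) were higher and 0 were lower. SPX3 rests there on 15, 11 and 21 counts, against 7, 5 and 0 in WT. The number higher there ran from 2 to 3 without single libraries and from 1 to 4 under other settings. In the libraries labelled grf123, 4 were lower and 1 higher. IPS1 (log2 -1.72 ± 0.38, edgeR adjusted p = 0.00852), AT4, a non-coding RNA related to IPS1 (log2 -1.09 ± 0.27, edgeR adjusted p = 0.0317), and SPX1 (log2 -0.97 ± 0.15, edgeR adjusted p = 6.57e-04) had the largest drops. PHO2, which encodes an enzyme that marks phosphate transport proteins for breakdown, was higher, at 199 ± 16.7 against 116 ± 3.39 CPM (log2 0.78 ± 0.09, edgeR adjusted p = 1.4e-05). The number lower was 1 without grf123 replicate 3 and 2 without WT replicate 2 or WT replicate 3. In the GRF1 overexpressors PHL1, a relative of PHR1, was higher (log2 0.71 ± 0.17, edgeR adjusted p = 0.0035) and 0 were lower. PHR1 itself had means from 52.4 to 61.2 CPM over the 4 genotypes and passed in no comparison with WT.

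Of 9 transport genes 7 passed the filter. In the GRF3 overexpressors PHF1, needed to bring phosphate transporters to the membrane (log2 0.53 ± 0.15, edgeR adjusted p = 0.0255), and PHO1;H1 (log2 0.43 ± 0.14, edgeR adjusted p = 0.0426) were higher. The transporter genes PHT1;1 (log2 -0.70 ± 0.20, edgeR adjusted p = 0.0255) and PHT1;2 (log2 -0.81 ± 0.23, edgeR adjusted p = 0.0267) were lower, but they are near-identical copies. Reads that match both copies would be among those without a unique alignment, which were left out, so their values are uncertain. The count of higher genes was 1 without GRF1 overexpressor replicate 2 or GRF3 overexpressor replicate 2, and 0 without GRF3 overexpressor replicate 1 or 3 or WT replicate 1 or 2. That of lower genes was 1 without GRF3 overexpressor replicate 1 or 2, and 0 without GRF3 overexpressor replicate 3 or WT replicate 2 or 3. The transporter gene PHT1;4 was lower in the libraries labelled grf123 (log2 -0.66 ± 0.16, edgeR adjusted p = 0.0193) and 0 were higher. The lower count was 0 without grf123 replicate 2 or 3 and 2 without grf123 replicate 1. The GRF1 overexpressors had 0 called in either direction by edgeR and by DESeq2, with PHT1;1 and PHT1;2 lower at an unadjusted p under 0.05. There, 1 was lower without GRF1 overexpressor replicate 2 or 3 and 2 without WT replicate 1.

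**Figure D4:**
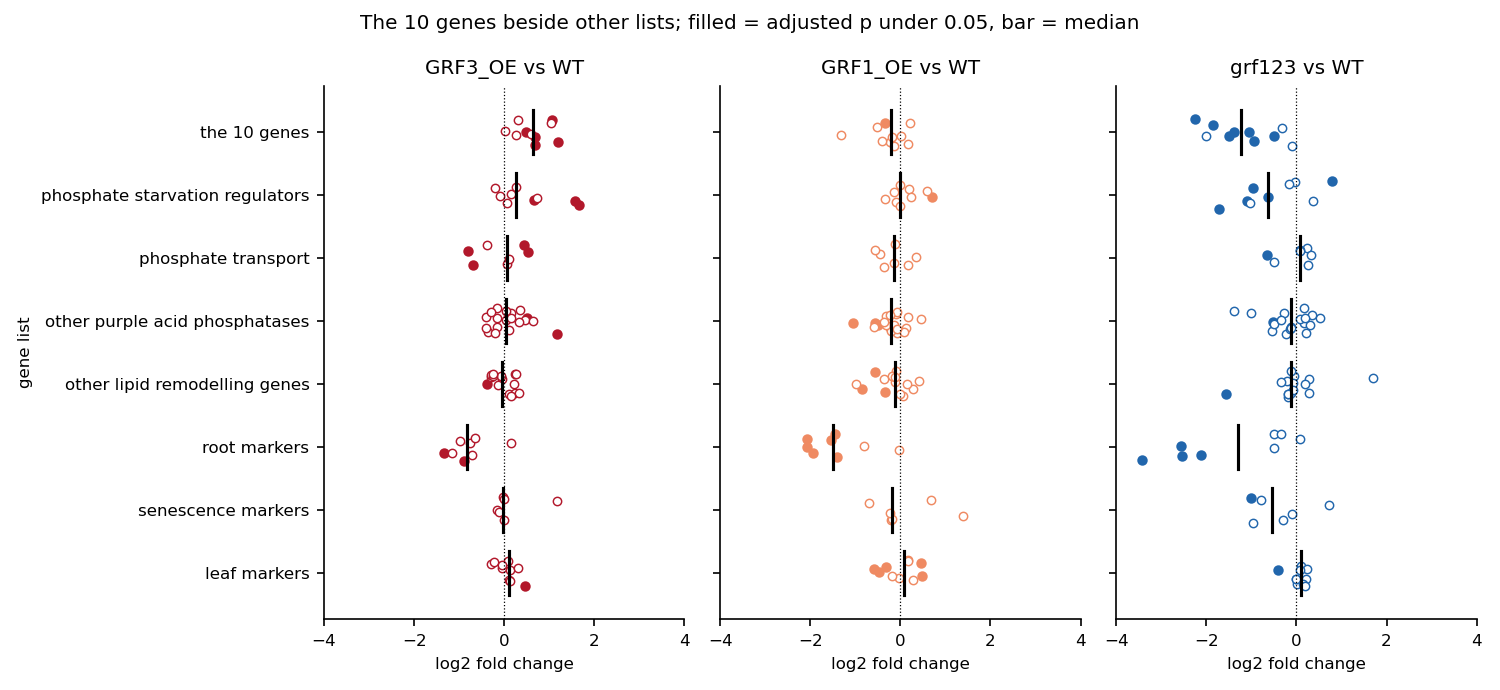
Log2 difference from WT (horizontal axis) of every gene past the filter, by list (rows) and genotype (panels); filled points passed the edgeR test and bars mark list medians. The medians of the 10 genes are 0.63 in the GRF3 overexpressors, -1.22 in the libraries labelled grf123 and -0.21 in the GRF1 overexpressors, against 0.04, -0.13 and -0.21 for the other purple acid phosphatases.

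Whole plants hold roots and shoots, and in such samples fewer cells of a type and less RNA per cell cannot be told apart. Of 11 root markers, genes of root hairs and endodermis, 8 passed the filter, and the number lower than in WT differed between genotypes and with the libraries used. In the libraries labelled grf123, 4 were lower than WT, with PRP1 (log2 -3.43 ± 0.60), LRX1 (log2 -2.56 ± 0.48) and PRP3 (log2 -2.55 ± 0.33) the lowest, and the count was 2 without grf123 replicate 3. In the GRF1 overexpressors 6 were lower, among them PRP3 (log2 -2.08 ± 0.31), PRP1 (log2 -2.07 ± 0.51) and COBL9 (log2 -1.93 ± 0.44), and the count was 2 without WT replicate 1. In the GRF3 overexpressors PRP3 (log2 -0.90 ± 0.27) and CASP2 (log2 -1.34 ± 0.39) were lower, a count that ran from 0 to 4 when single libraries were left out. It was 4 without GRF3 overexpressor replicate 1, 1 without GRF1 overexpressor replicate 2 or 3 or WT replicate 2, and 0 without GRF3 overexpressor replicate 2 or 3 or WT replicate 1. In each comparison with WT 0 root markers were higher. Summed over the list, the root markers were at 42.2 to 58.3 CPM in WT, 17.4 to 19.7 in the GRF1 overexpressors, 19.9 to 46.9 in the GRF3 overexpressors and 8.54 to 22.1 in the libraries labelled grf123. ESB1 was at 0 in 4 libraries, and EXPA7 and LRX1 each in 1.

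The root markers were thus low both in the GRF1 overexpressors, where the members' median log2 difference from WT was -0.21, and in the libraries labelled grf123, where it was -1.22. In the GRF3 overexpressors they were below or within the WT range while 5 members were higher. The part of root content in the members' levels was not tested beyond these values. The 10 leaf markers, all past the filter, summed to 30552 to 37694 CPM over the 12 libraries, with medians from 0.08 to 0.10 in the 3 comparisons with WT. RBCS1B, which encodes a Rubisco small subunit, was lower in the libraries labelled grf123 (log2 -0.41 ± 0.10, edgeR adjusted p = 0.0209) and higher in the GRF3 overexpressors (log2 0.46 ± 0.10, edgeR adjusted p = 0.00595). In the GRF1 overexpressors RBCS2B (log2 0.49 ± 0.14) and RBCS1B (log2 0.45 ± 0.10) were higher and LHCB1.1 (log2 -0.59 ± 0.11), LHCB2.1 (log2 -0.48 ± 0.12) and LHCB1.2 (log2 -0.32 ± 0.11) lower. These gene families hold near-identical copies. Reads that match more than 1 copy would be among those without a unique alignment, so the levels of single genes are uncertain.

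Senescence markers were followed because PAP17 is also known to rise in ageing leaves. Their sum was 115 to 188 CPM in WT, 147 to 181 in the GRF3 overexpressors, 193 to 228 in the GRF1 overexpressors and 105 to 121 in the libraries labelled grf123. Of 7 markers 6 passed the filter, and SAG12, the most specific of them, was at 0 in all 12 libraries. NAC092, a senescence regulator, was lower in the libraries labelled grf123 (log2 -1.0 ± 0.19, edgeR adjusted p = 0.0035), where 0 were higher, and the lower count was 2 without WT replicate 1. In the GRF1 and GRF3 overexpressors edgeR called 0 of the 6 against WT. At an unadjusted p under 0.05, and in DESeq2, 1 was higher in the GRF1 overexpressors and 0 changed in the GRF3 overexpressors. The part of senescence in the PAP17 levels was not tested.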

How the data were processed

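Raw counts of reads for each locus, 1 table for each library, were deposited by the authors. Per the submitters' processing notes, Trimmomatic, TopHat2 2.0.14, HTSeq and DESeq2 were named with the TAIR 10 build; the strand setting is not given in the sources used here. Rows that name no gene held 57.6% to 76.9% of each table and were left out. Most of that was reads without a unique alignment, from 54.4% in GRF3 overexpressor replicate 3 to 73.4% in WT replicate 3. The largest single locus held 13.1% to 31.8% of the gene counts of a library. Gene annotation and sequence came from RefSeq TAIR10.1, matched by locus tag for 28009 loci; no coordinates come from the count tables.

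Tests used edgeR 4.0.16 (R 4.3.3) with TMM scaling, filterByExpr (minimum count 10, minimum total 15), 1 quasi-likelihood fit over 12 libraries with genotype as the only term, and Benjamini-Hochberg adjustment over 17938 genes, threshold 0.05. SE is the log2 difference over the square root of F. DESeq2 1.42.0 was an alternative. The 10 members and all lists were chosen with earlier results of these data known. Of each other list, up to 3 called genes in each direction with the largest differences from WT were named, and the 5 genes most like the members' mean. Gene counts of 2820223 to 14277574 limit precision for low genes. The SDs and intervals cover the spread between libraries only.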

Additional observations from a re-analysis of the deposited data

How the results depend on the processing

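Over 60 member differences and 23 alternatives, 1354 of 1373 values kept their direction. The number of members called in the GRF1 overexpressors against WT was 1 and became 0 with upper-quartile factors, without the largest locus, with a filter at 1 CPM in 3 libraries, in DESeq2 and in a fit of the 6 libraries compared, and 2 with the replicate block. It ran from 0 to 2 when single libraries were left out. In the GRF3 overexpressors against WT, 5 became 2 with the length trend removed and 3 with the replicate block and the length trend removed, and ran from 1 to 5 without single libraries. In the libraries labelled grf123 against WT, 7 ran from 3 to 7 without single libraries and from 6 to 8 under the other settings. In the GRF1 against the GRF3 overexpressors, 5 became 3 with the length trend removed and ran from 2 to 5 without single libraries. Where these counts moved, the cause was not tested.

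The log2 differences that changed sign had not passed the test. SQD2 in the GRF1 overexpressors against WT became -0.00 with the GC trend removed, and PECP1 became -0.02 with the replicate block and the length trend removed. NPC4 in the GRF3 overexpressors against WT became -0.16 with the replicate block, with or without the length trend. Without single libraries, the GRF1 overexpressors against WT ran from -0.29 to 0.07 for GDPD1, -0.19 to 0.42 for PECP1, -0.05 to 0.09 for SQD2, -0.56 to 0.36 for MGD2 and -1.08 to 0.01 for MGD3. NPC4 ran from -0.25 to 0.15 in the GRF3 overexpressors against WT, -1.28 to 0.19 in the libraries labelled grf123 against WT and -0.18 to 1.29 between those 2.

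Deviations of same-numbered libraries from their genotype means had r from -0.13 to 0.14 over 6 comparisons. Differently numbered libraries were not set beside them, so these values cannot decide whether the numbers mark shared blocks. The block thus stands on numbers alone. Over all genes, calls against WT fell from 3911 to 2545 (GRF1 overexpressors) and from 2226 to 899 (GRF3 overexpressors) with the length trend removed, and to 2429 and 818 with the block as well. In the 6-library fits they fell from 875 to 535 (libraries labelled grf123) and rose from 204 to 408 between the overexpressors. NPC4 and MGD3 gave no adjusted p in 7 cases of a gene and a comparison, in DESeq2 or because they fell below the filter of a 6-library fit. NPC4 had few counts and MGD3 varied widely among replicates. In the GRF1 overexpressors against WT their 95% intervals were wide (log2 -2.43 to -0.20 for NPC4, -1.93 to 0.91 for MGD3). A missing call in these 2 genes therefore does not show equal levels.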
